A study of Mus musculus with 2 samples.

Results

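The genes described here are those of the zinc importer ZIP10 and of the cell's response to zinc, 7 of the 23233 genes in the deposited table. They were chosen by symbol as Slc39a10, which encodes ZIP10, the zinc sensor gene Mtf1, the metallothionein genes Mt1, Mt2, Mt3 and Mt4, and Slc30a1, which encodes the zinc exporter ZnT1. All 7 symbols are listed. RNA was measured in 2 populations of cells from ventral skin of 7-day-old wild-type C57BL/6 mice, dissociated with dispase and collagenase and sorted after staining with a polyclonal antibody against ZIP10 into ZIP10-positive and ZIP10-negative cells. Each population gave 1 library of polyadenylated RNA, so there is no replicate, no test and no p-value, and every difference is one between these libraries. The labels give neither the number of mice nor any pooling. The titles call both populations cells of hair follicles, while the protocol describes a suspension of minced skin and names, besides ZIP10, a viability dye and control rabbit IgG, and no marker of a cell type.

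Zinc enters the cytosol through importers of the ZIP (Slc39) family and leaves it through exporters of the ZnT (Slc30) family. When free zinc rises, the transcription factor MTF1 binds DNA sites called metal response elements and turns on Mt1, Mt2 and Slc30a1, whose products bind or export the metal. Metallothioneins are small cysteine-rich proteins that also bind copper and cadmium. Mt1 and Mt2 are made in most tissues and are induced by glucocorticoids and oxidative stress too, Mt3 is known mainly from brain, and Mt4 from stratified epithelia such as skin. ZIP10 is an importer at the cell surface, and its gene is known to be repressed through MTF1 when zinc is high.

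Windows at the RefSeq starts of Mt1, Mt2 and Slc30a1 are shown because their response to zinc is known to run through metal response elements. They need not hold the elements through which these genes respond, since some annotated transcripts of each gene start after the window. The window of Mt4, the metallothionein gene of stratified epithelia, is shown for comparison. All 7 genes had an entry among RefSeq promoter windows of GRCm38.p6, which span 250 bases before to 50 bases after an annotated start, and Slc39a10 had 2. The core of the element was searched as TGCACNC or TGCGCNC on both strands, and no other motif was searched. The sequences below give the 250 bases before the start, 5′ to 3′ on the gene's strand, with each match in capitals, which reads as the reverse complement where the match is on the other strand. They lie at chr8:94178839-94179088 for Mt1, chr8:94172368-94172617 for Mt2, chr8:94136954-94137203 for Mt4 and chr1:191906531-191906780 for Slc30a1, all on the plus strand.
Mt1: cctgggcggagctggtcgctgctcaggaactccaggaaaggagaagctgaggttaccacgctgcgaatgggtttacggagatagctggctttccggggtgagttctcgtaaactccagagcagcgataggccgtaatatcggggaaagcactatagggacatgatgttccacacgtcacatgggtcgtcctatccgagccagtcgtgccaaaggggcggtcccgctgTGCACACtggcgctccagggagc
Mt2: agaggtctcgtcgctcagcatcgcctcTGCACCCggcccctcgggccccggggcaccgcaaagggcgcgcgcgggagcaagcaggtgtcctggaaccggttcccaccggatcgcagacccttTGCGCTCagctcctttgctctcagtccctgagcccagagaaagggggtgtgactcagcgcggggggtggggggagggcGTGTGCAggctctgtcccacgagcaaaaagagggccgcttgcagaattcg
Mt4: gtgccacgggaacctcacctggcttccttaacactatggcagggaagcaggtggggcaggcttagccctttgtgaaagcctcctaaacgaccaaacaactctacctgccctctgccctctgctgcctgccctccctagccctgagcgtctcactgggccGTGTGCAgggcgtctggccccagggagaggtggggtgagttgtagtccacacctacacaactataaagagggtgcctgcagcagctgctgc
Slc30a1: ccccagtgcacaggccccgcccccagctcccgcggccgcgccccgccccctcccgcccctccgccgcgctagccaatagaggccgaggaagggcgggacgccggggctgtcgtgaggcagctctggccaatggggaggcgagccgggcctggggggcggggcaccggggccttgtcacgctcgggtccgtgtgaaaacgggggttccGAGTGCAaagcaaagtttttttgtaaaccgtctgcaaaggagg

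Counted from the start, with position 1 as its first base, Mt2 had 4 matches, at -223, -128, -50 and 5. Mt1 had 3, at -23, 3 and 21, the last of them TGCGCTC. In Slc30a1 there were 2, at -43 and 31, and Mt4 and Mt3 had 1 each, at -91 and 28. No match was found in the Mtf1 window or in either Slc39a10 window. Of all 32851 windows of the same length, 25.7% held at least 1 match, 7.11% at least 2, 1.97% at least 3 and 0.517% at least 4. A match describes these letters and is no evidence of binding, and a window without one says nothing about elements elsewhere. The window is also not the whole promoter. GENCODE vM21 placed 1 of 3 Mt1 transcripts and 1 of 2 Mt2 transcripts inside it and the others after it, and none of the 4 Slc39a10 transcripts started in either Slc39a10 window.

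**Figure D1:**
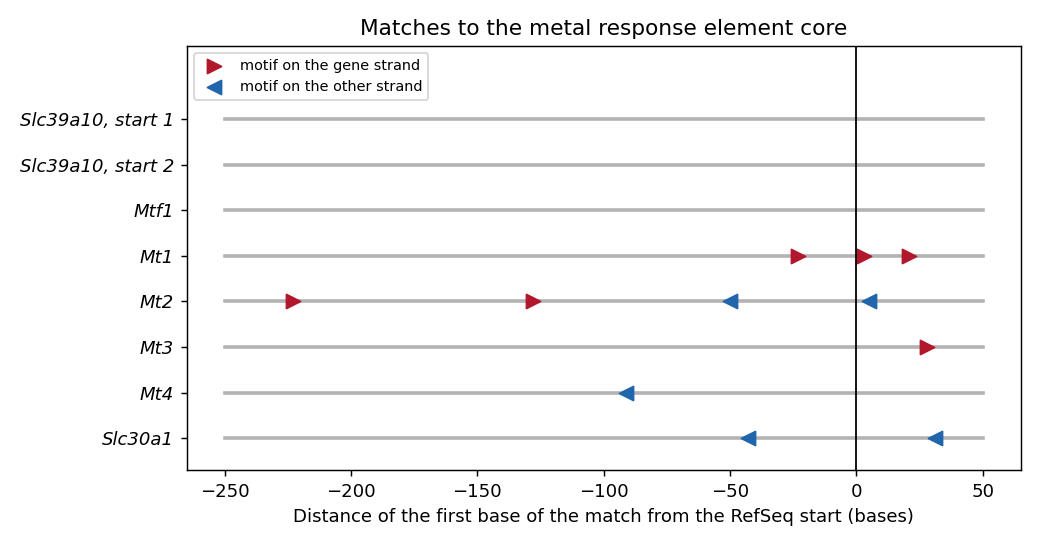
Matches to the metal response element core in the promoter windows of the 7 genes, drawn by distance in bases of the first base of the match from the RefSeq start (horizontal axis). Grey lines are the windows, and triangles point right for matches on the gene's strand and left for the other strand. Mt2 has 4 and Mt1 3 matches, and the windows of Slc39a10 and Mtf1 have none.

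Values are in RPKM, reads scaled to transcript length and library size, as the authors deposited them. A gene was compared where it reached 1 RPKM in at least 1 library, which 12249 genes did, and ratios on the log2 scale are log2((positive + 1)/(negative + 1)), which understates the change of low genes. As deposited, a gene was more often higher in ZIP10-positive cells, with 44.1% of the genes compared higher by 2-fold or more and 3.55% lower. Globin RNA took 59.4% of summed RPKM among ZIP10-negative and 3.46% among ZIP10-positive cells. Among genes that reached 1 RPKM in each library the median ratio was 1.97, a log2 shift of 0.98. Each ratio is therefore also given relative to this median gene, where 14.7% of genes were higher by 2-fold or more and 11.4% lower. Scaling to genes outside the 50 most abundant of either library moved the zero point further, to a ratio of 2.51, with 9.70% higher and 17.6% lower, and scaling without globin genes and Rn45s, the ribosomal RNA precursor, moved it to 2.63, with 8.99% higher and 19.2% lower. With bulk RNA, fewer cells of a type and less RNA per cell cannot be told apart. Estimated from the steps between low values, the depth was about 2780000 reads for the ZIP10-positive and 2710000 for the ZIP10-negative library.

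Slc39a10 read 49.4 RPKM among cells sorted as positive and 11.1 RPKM among those sorted as negative, a ratio of 4.43. Since the cells were sorted by an antibody against its protein, this value checks the labels and is no finding. RNA of the gene was also present in the cells sorted as negative, where Slc39a10 ranked 2679 of all genes by RPKM, against 1445 in the positive cells.

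Among the zinc-responsive genes, Mt1, Mt2, Mt4 and Slc30a1 were at least 2-fold higher in the ZIP10-positive library as deposited, where 44.1% of all genes compared were. Their ratios ran from 4.00 to 5.05. Mtf1 had a higher ratio, 6.67. It passed the filter on low values through the positive library alone, could not be called lower and is not counted. The 2 ubiquitous metallothioneins were the most abundant. Mt1 stood at 597 RPKM in the positive population and at 149 RPKM in the negative one, a 4.00-fold difference. Mt2 stood at 789.9 RPKM and 163 RPKM, a 4.84-fold difference. They ranked 164 and 130 by RPKM in the positive library and 228 and 207 in the negative one, so both were among the highest transcripts of either population.

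The levels of Mt1 and Mt2 were close to each other in each population. In the ZIP10-negative library Mt2 was 1.09 times Mt1, and their exact Poisson 95% intervals, 107 to 239 RPKM and 125 to 176 RPKM, overlapped. In the ZIP10-positive library the factor was 1.32, and the intervals, 659 to 939 RPKM for Mt2 and 549 to 649 RPKM for Mt1, did not. These intervals cover counting error only. They rest on the fewest whole reads that give the ratio of the libraries, which were 562 and 137 for Mt1 and 129 and 26 for Mt2.

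Mt4, the metallothionein of stratified epithelia, reached 109 RPKM among positive and 21.7 RPKM among negative cells. Its ratio of 5.05 was the highest of the 3 metallothioneins, but its counting interval of 2.62 to 10.7 contained those of Mt1 and Mt2, 3.31 to 4.86 and 3.16 to 7.69. It was 7.31% of the summed RPKM of the 3 genes in the positive and 6.48% in the negative library, while Mt1 was 39.9% and 44.7% and Mt2 52.8% and 48.8%. The sum itself was 1497 RPKM against 334 RPKM. As a share of summed RPKM without globin genes and Rn45s it was 0.227% against 0.133%. Mt3 was listed at 0 in both libraries, although it lies next to Mt4 on chromosome 8, in the cluster that also holds Mt1 and Mt2. A listed 0 can be a failed estimate in this table, since Psmg4 and Ndufaf3, which all cells use, were listed at 0 in the ZIP10-negative library.

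Slc30a1, whose product ZnT1 carries zinc out of the cell, had 30.2 RPKM in the positive population, against 6.67 RPKM in the negative one. Its ratio was 4.53, with an exact binomial 95% interval of 3.61 to 5.75 from at least 423 and 91 reads. The length of its longest annotated transcript, 5244 bases, and the estimated depth gave 424 and 91.2 reads. Its level was below that of Slc39a10 in both libraries, and in the negative one their intervals, 5.37 to 8.18 and 7.14 to 16.6 RPKM, overlapped. The interval of Slc39a10 rests on its fewest reads, 24 in that library, where its longest transcript would give 160. It may therefore be too wide, and the overlap does not settle whether the levels differ.

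Mtf1, the zinc sensor itself, was the lowest of the genes above 0, with 1.98 RPKM for positive and 0.297 RPKM for negative cells. It passed the filter on low values through the positive library alone. The ratio of 6.67 rests on as few as 41 and 6 reads, and its interval was 2.81 to 19.2. On the log2 scale with the pseudocount it was 1.20, and 0.77 relative to the median gene. Mtf1 also overlaps 1110065P20Rik, a gene on the opposite strand. Of the 8898 different 50-base words in its GENCODE transcripts, 672 occur there too, and 1110065P20Rik stood at 46.3 against 2.64 RPKM, a ratio of 17.6. Whether counting used strand is not given in the sources used here, so reads of the shared stretch cannot be assigned and the Mtf1 value is uncertain to that extent.

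**Figure D2:**
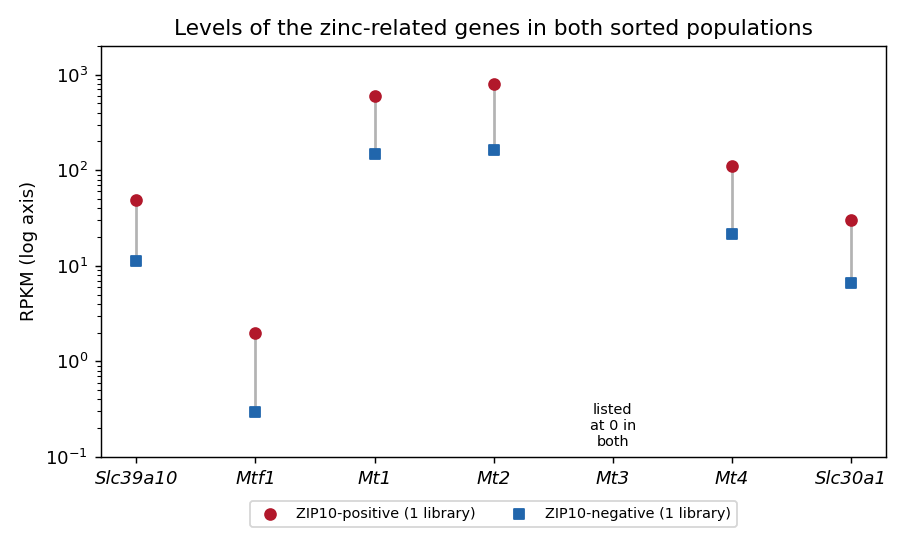
RPKM of the 7 genes (vertical axis, logarithmic) in the ZIP10-positive library (red circles) and the ZIP10-negative library (blue squares), 1 library each, with no error bars. The 6 genes above 0 are higher in the positive library and keep the order Mt2, Mt1, Mt4, Slc39a10, Slc30a1, Mtf1 in both, while Mt3 is listed at 0.

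The difference was larger than that of the median gene for each of these genes. Relative to the median gene Mt1 was 2.03-fold, Slc30a1 2.30-fold, Mt2 2.46-fold and Mt4 2.56-fold higher, with log2 ratios of 1.02, 1.12, 1.29 and 1.33. Mtf1 was 3.38-fold higher by the ratio of RPKM, but with the pseudocount its log2 ratio of 0.77 stayed under 2-fold. Of the 6 zinc-responsive genes Mt3 did not pass the filter and Mtf1 passed through the library where it is high, so neither is counted. The other 4 were at least 2-fold higher on both scales, where 44.1% and 14.7% of all genes compared were. Relative to the median gene their counting intervals all began below 2-fold, at 1.68 for Mt1, 1.83 for Slc30a1, 1.60 for Mt2 and 1.33 for Mt4. Counting error alone therefore leaves the 2-fold call on that scale open for each. Of all genes compared, 90.1% had a log2 ratio at or below that of Mt1, 90.7% at or below that of Slc30a1, 93.98% at or below that of Mt2 and 94.1% at or below that of Mt4, while for Mtf1 it was 65.1%. These shares use the pseudocount, which understates the change of low genes, so they depend in part on level.

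The 2-fold call followed the scaling, and the direction did not. Once the 50 most abundant genes were left out of the scaling, none reached 2-fold, and log2 ratios were 0.61 for Mtf1, 0.67 for Mt1, 0.80 for Slc30a1, 0.94 for Mt2 and 0.99 for Mt4. Without globin genes and Rn45s they were 0.58, 0.60, 0.73, 0.88 and 0.92. The counting interval of each ratio lay above the median gene and above the zero point outside the 50 most abundant. The interval of Mt4 reached just below the zero point without globin genes and Rn45s, at 2.62 against 2.63, and those of Mt1, Mt2, Slc30a1 and Mtf1 lay above it.

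**Figure D3:**
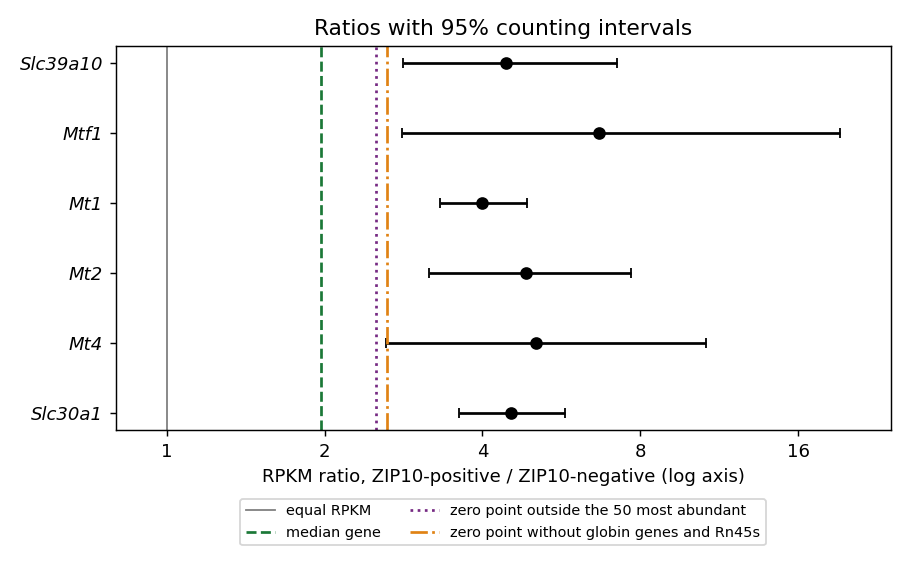
RPKM ratio between both populations, positive over negative (horizontal axis, logarithmic), for the 6 genes above 0, with exact binomial 95% intervals from the fewest reads that give each ratio, covering counting error only. Vertical lines mark equal RPKM, the median gene at 1.97 and the zero points of the other scalings at 2.51 and 2.63. All points lie right of all lines, and the interval of Mt4 reaches the last.

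Mt1, Mt3 and Mt4 shared no 50-base word with transcripts of another gene in GENCODE vM21, and no member shared one with another member. Reads of the metallothioneins of this read length therefore differ between the copies where they match without error. Of 554 words of Mt2, 254 also occur in the antisense gene Gm45774, which is not a symbol of the table. Since strand use is not given, reads of that stretch cannot be assigned, and the Mt2 value is uncertain to that extent, as for Mtf1. Slc39a10 shared 27 of 6042 words with Gm6801, not a symbol of the table either. Slc30a1 shared 420 of 5241 words with its antisense neighbour 1700034H15Rik, which stood at 0.363 and 0.018 RPKM.

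The genes nearest to these in level over the 2 libraries, by distance on log2(RPKM + 1) among 9619 other genes, were broadly expressed ones. For Mt1 they were Tuba1b, Usmg5 and Eef1g, at distances of 0.12, 0.13 and 0.15, and Eef1g, a translation elongation factor gene, stood at 654 and 156 RPKM. For Mt2 they were Rpl15, a ribosomal protein gene at 815 and 156 RPKM, Atp5l and H2afz, at 0.078, 0.088 and 0.13. For Slc39a10 they were Polr2l, a subunit of RNA polymerases, Taf1d and Arl6ip4, at 0.0094, 0.028 and 0.038. With 2 libraries a pattern is only a pair of levels.

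The other zinc transporter genes are given without Slc39a10, whose protein was sorted, and Slc30a1. Of 22 others listed, 15 passed the filter. As deposited 5 of the 15 were higher by 2-fold or more and Slc39a4 was lower, against 44.1% and 3.55% of all genes. Against the median gene Slc39a8 was higher and Slc39a4 lower, where 14.7% and 11.4% of all genes were. Slc39a4 passed the filter through the negative library alone, so it could not be called higher, and its listed 0 in the positive library can be a failed estimate. The median log2 ratio of the 10 ZIP genes was 1.01 as deposited, 0.24 relative to the median gene and -0.044 when the 50 most abundant genes were left out of the scaling. That of the 5 ZnT genes was 0.67, -0.12 and -0.42. The sign of both medians followed the scaling.

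The importer gene nearest to Slc39a10 in its ratio was Slc39a8, which encodes ZIP8, at 8.75 against 1.75 RPKM. On the log2 scale this was 1.82 as deposited and 1.06 from the median gene. Slc39a11, Slc39a9, Slc39a1 and Slc39a14 followed, at 13.3, 10.9, 66.5 and 12.9 RPKM against 3.66, 3.08, 26.7 and 5.07 RPKM. These 4 were at least 2-fold higher as deposited and not relative to the median gene, with log2 ratios there of 0.77, 0.72, 0.33 and 0.33. Without globin genes and Rn45s in the scaling, Slc39a1 and Slc39a14 turned to -0.075 and -0.044. Slc39a1, the gene of the surface importer ZIP1, was the most abundant zinc transporter gene in the ZIP10-positive library.

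Slc39a7, whose product ZIP7 releases zinc from the endoplasmic reticulum, stood at 48.4 against 32.5 RPKM, below the median gene with a log2 ratio of -0.40, and was the most abundant zinc transporter gene in ZIP10-negative cells. Slc39a6, whose protein is the closest relative of ZIP10, stood at 27.7 against 15.5 RPKM, a log2 ratio of 0.80 that turned to -0.13 relative to the median gene. Slc39a13 stood at 3.30 against 1.42 RPKM and Slc39a3 at 8.05 against 4.07 RPKM. Slc39a4, the intestinal importer gene mutated in the zinc deficiency acrodermatitis enteropathica, was listed at 0 in the positive library and stood at 1.27 RPKM in the negative one, and was the lone transporter gene compared with a log2 ratio under 0 as deposited. Slc39a2 stood at 0.843 against 0.519 RPKM, under the filter, and Slc39a5 and Slc39a12 were listed at 0 in both libraries.

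Among the exporters compared, Slc30a1 had the highest ratio. The genes of the Golgi and vesicle exporters Slc30a5, Slc30a6, Slc30a7 and Slc30a4 stood at 15.7, 10.1, 2.02 and 4.77 RPKM against 7.42, 5.66, 1.02 and 3.003 RPKM, and Slc30a9 at 6.27 against 3.56 RPKM. Their log2 ratios lay between 0.53 and 0.99 as deposited and between -0.25 and 0.092 relative to the median gene. Slc30a2, Slc30a3 and Slc30a8 were listed at 0 in both libraries, and Slc30a10 at 0.128 RPKM in the positive and 0 in the negative one.

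**Figure D4:**
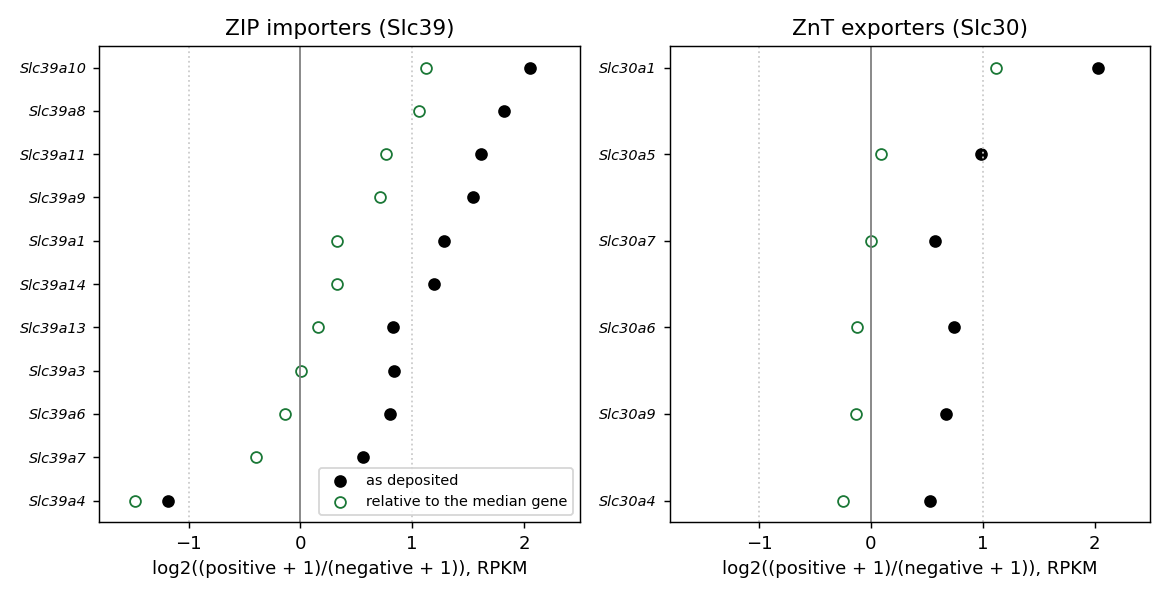
Log2 ratios of RPKM + 1, ZIP10-positive over ZIP10-negative (horizontal axis), of the 11 ZIP genes (left) and 6 ZnT genes (right) that reached 1 RPKM in a library, as deposited (black) and relative to the median gene (open green). Dotted lines mark 2-fold; Slc39a10, Slc39a8 and Slc30a1 are past it on the higher side on both scales, and Slc39a4 on the lower side.

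Of 6 listed genes known to respond through MTF1, besides those above, 4 passed the filter. Of these 3 were at least 2-fold higher as deposited and 1 relative to the median gene, against 44.1% and 14.7% of all genes, and none was lower on either scale. Csrp1, which encodes a zinc-binding LIM protein, stood at 153 against 38.6 RPKM, a ratio of 3.98, near that of Mt1, and barely past 2-fold relative to the median gene. Gclc, for the catalytic subunit of glutathione synthesis, stood at 14.5 against 4.45 RPKM, and Sepw1, a selenoprotein gene, at 401 against 169.8 RPKM, with log2 ratios relative to the median gene of 0.64 and 0.26. Ndrg1, a stress-responsive gene, had 28.2 against 17.7 RPKM and a log2 ratio on that scale of -0.29.

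Mt1 and Mt2 also respond to glucocorticoids and oxidative stress, and genes of both responses were listed beside them, against the same 44.1% and 14.7% of all genes higher and 3.55% and 11.4% lower. Of 7 glucocorticoid-induced genes compared, 2 were higher by 2-fold or more as deposited with none lower, while against the median gene 2 were lower with none higher, with list medians of 0.79 and -0.16. Fkbp5, a classical glucocorticoid target, stood at 1.85 against 2.90 RPKM and Per1 at 4.92 against 6.71 RPKM, while Sgk1 stood at 30.5 against 9.22 RPKM. Of 7 targets of the oxidative stress factor NRF2, 6 were at least 2-fold higher as deposited and none relative to the median gene, with medians of 1.36 and 0.63. Gclc, given above among the genes that respond through MTF1, is also on this list and among the 6, so the lists overlap. Slc7a11, the cystine importer gene, stood at 7.48 against 1.76 RPKM and Hmox1, heme oxygenase, at 11.3 against 4.02 RPKM.

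Markers of several cell types differed between the libraries. The counts that follow stand beside 44.1% higher and 3.55% lower among all genes as deposited, and 14.7% and 11.4% relative to the median gene. Of 11 macrophage and monocyte markers compared 10 were at least 2-fold higher as deposited and 9 against the median gene. Of these, Csf1r, Ctss, Emr1, Aif1, Lyz2, C1qa, C1qb and C1qc passed the filter on low values through the positive library alone. They could therefore not be called lower. Tyrobp, Cd68 and Fcer1g passed in both libraries, at 280, 31.3 and 163 RPKM against 37.6, 11.0 and 95.7 RPKM. Relative to the median gene their log2 ratios were 1.90, 0.50 and -0.21. The summed level was 1399 against 146 RPKM over 12 genes. Aif1, Lyz2, C1qa, C1qb, C1qc and Mrc1 were listed at 0 in the negative library, which can be a failed estimate. Without Lyz2, left out after the values were seen, the sum was 628 against 146 RPKM, a ratio of 4.30 in place of 9.59. Of 7 mast cell markers 6 were higher as deposited and 5 against the median gene. Hdc, counted as higher on both scales, passed the filter through the positive library alone. The sum over 8 was 383 against 37.0 RPKM, with Ms4a2 at 0 in the negative library. In the other direction 5 of 5 T cell markers and 7 of 7 erythrocyte markers were at least 2-fold lower on both scales. Their sums were 123 against 699.7 RPKM and 16377 against 283754 RPKM, with no marker at 0. The erythrocyte marker Slc4a1 passed the filter through the negative library alone, so it could not be called higher. The part of these cell types in the values of Mt1, Mt2, Mt4, Slc30a1 and Mtf1 was not tested.

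Keratinocyte and follicle markers were present in both libraries. All 10 basal keratinocyte and outer root sheath markers were above 0 in both, with a sum of 3144 against 1220.2 RPKM. Of these 10, 6 were at least 2-fold higher as deposited and 1 relative to the median gene, against 44.1% and 14.7% of all genes. The inner root sheath and hair shaft markers summed to 895 against 511 RPKM with none at 0, with 2 of 10 at least 2-fold higher as deposited. Against the median gene none was higher and 1 was lower. The suprabasal epidermis markers, of which 9 of 10 were in the table, summed to 128 against 141 RPKM, none was at 0, and as deposited 1 was past 2-fold while 2 were lower, against none and 3 when set against the median gene. The part of these layers in the Mt4 value was not tested. Dermal fibroblast and papilla markers summed to 1301 against 922 RPKM with none at 0, with 2 of 8 at least 2-fold higher as deposited. Against the median gene 1 was higher and 2 were lower. Melanocyte markers summed to 281 against 201 RPKM with none at 0 and none of 6 at least 2-fold apart as deposited and 2 lower against the median gene. Endothelial markers summed to 5.40 against 1.54 RPKM, with Emcn at 0 in both libraries and Tie1 and Tek in the negative one.

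**Figure D5:**
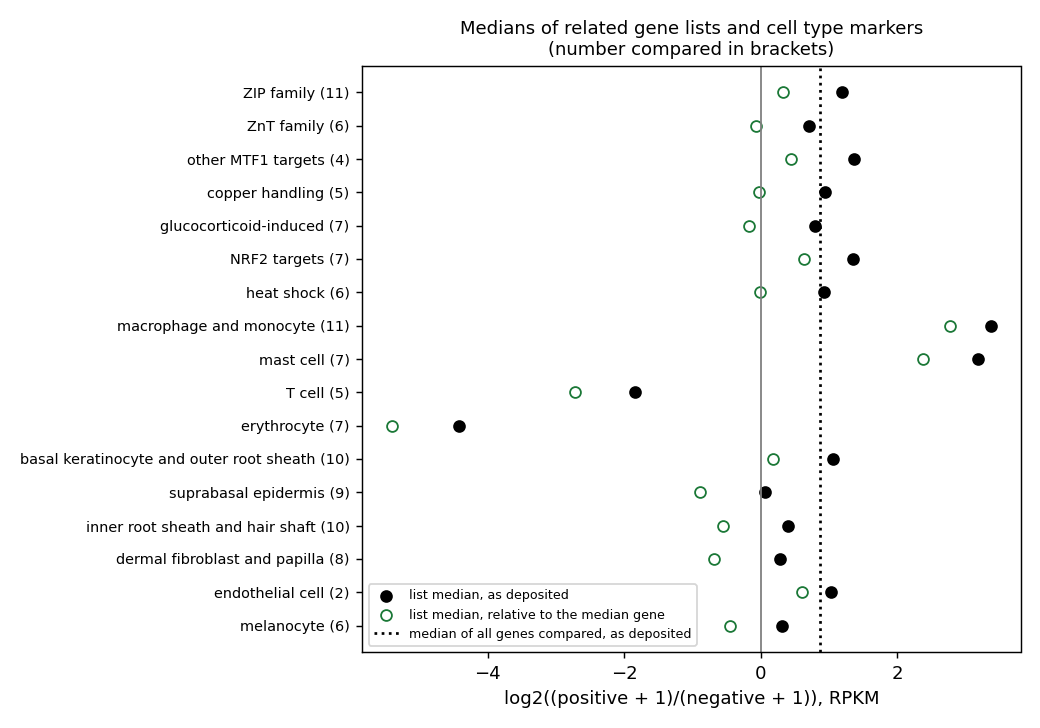
Median log2 ratio of RPKM + 1, ZIP10-positive over ZIP10-negative (horizontal axis), of each gene list and cell type marker list, as deposited (black) and relative to the median gene (open green), with the number of genes compared in brackets; the ZIP and ZnT lists include Slc39a10 and Slc30a1. The dotted line is the median of all genes compared as deposited, 0.87; macrophage and mast cell markers lie far to its right, and T cell and erythrocyte markers to its left.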

How the data were processed

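RNA of 1 ZIP10-positive and 1 ZIP10-negative library was compared from the table of RPKM values that the authors deposited. RPKM is what the table is called. Per the submitters' processing notes, TopHat, Cufflinks and cutadapt were used with mm9. Versions, settings, annotation and strand use: not given in the sources used here. Sequences and transcript lengths came from another build, GRCm38, so no coordinates of the deposited values are given. Among 1389 genes at 1 RPKM or less and above 0 in both libraries, 64.8% had values in a ratio of whole numbers up to 20, within 0.0012%, times a fixed number of 0.975. That number was searched for near equal depth alone. Depth was estimated from 109 such genes with 1 annotated transcript, with 199 bases taken off each length, and 33.03% of them lay within 1.4% of the most frequent value. Fewest reads are the smallest whole numbers that give a gene's ratio within 0.002%. They assume that whole reads were counted, and for large numbers a match is no check of this. They gave exact Clopper-Pearson intervals for ratios and exact Poisson intervals for levels, all at 95%. Reads carry no molecular identifiers, so these cover counting error only. At annotated lengths and the estimated depth Slc39a10 could rest on up to 727 and 160 reads in place of its fewest, 109 and 24, and Mt2 on 415 and 83.6 or more in place of 129 and 26, so their true intervals may be narrower.

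The pseudocount was 1 RPKM. The shift of the median gene, from 9620 genes, was divided evenly between the libraries. The genes and lists were chosen with earlier results of these data known. The rule for named genes was all 7 genes, all zinc transporters, at most 4 genes of each other gene list, and the 3 nearest genes of Slc39a10, Mt1 and Mt2. The genes 1110065P20Rik, 1700034H15Rik, Gm45774 and Gm6801 were named for their overlap. Psmg4, Ndufaf3 and the cell type markers listed at 0 were named after their values were seen. So were the other macrophage and monocyte markers, Hdc and Slc4a1, named for how they passed the filter. Software was scipy 1.17.1, numpy 2.4.6 and pandas 2.3.3 under Python 3.11.15. The search for the fixed number, the shift of the median gene and the ratios relative to it were tested on simulated data. Depth, fewest reads, intervals and the motif search were not. Alternatives were other pseudocounts, filters, scalings and motif letters.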

Additional observations from a re-analysis of the deposited data

How the results depend on the processing

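Log2 ratios of the 6 genes above 0 stayed above 0 under every alternative tried, from 0.24 for Mtf1 to 2.39 for the same gene. With the 50 most abundant genes, or globin genes and Rn45s, left out of the scaling, fewer genes were at least 2-fold higher than as deposited. The number of zinc-responsive genes went from 5 to 0. Without Mtf1, which passed the filter through the positive library alone, it went from 4 to 0. That of zinc transporters went from 7 to 0, or from 5 to 0 without Slc39a10 and Slc30a1. Of all genes compared, 44.1% were higher as deposited, and 9.70% and 8.99% under these scalings. Relative to a median gene taken from genes at 10 RPKM or more in both libraries, 2 zinc-responsive genes in place of 4 were 2-fold higher, with Mt1 at 0.88 and Slc30a1 at 0.99. This count was 3 with a pseudocount of 5 or a filter of 5 RPKM, and 5, with Mtf1, at a pseudocount of 0.1. It stayed at 4 without a filter and with a trimmed mean in place of the median. With a pseudocount of 5, the number of zinc transporters higher relative to the median gene went from 3, with Slc39a10 and Slc30a1 among them, to 0. The transporter lower on both scales, Slc39a4, was not called with a pseudocount of 5 or a filter of 5 RPKM, giving 0 in place of 1. With the motif TGCNCNC, 7 of the promoter windows in place of 5 held a match, against 51.03% of all windows. In all, 15 of 59 alternative values of single genes lay outside the counting interval of the gene's ratio, and none changed sign. The interval is of the ratio without a pseudocount, while the values carry one. By that rule the reported Mtf1 log2 ratio as deposited lay outside its interval too, so the tally mixes 2 measures. Removing a library was not possible with 1 per group. No paired analysis was possible because each group has 1 library. Depth limits Mtf1 and Mt4 most, at as few as 6 and 11 reads in the ZIP10-negative library.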

Other observations

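Genes of copper handling, which metallothioneins also serve, went both ways. Of 5 compared 2 were at least 2-fold higher as deposited and none relative to the median gene, against 44.1% and 14.7% of all genes, with medians of 0.95 and -0.026. Atox1, the copper chaperone of the secretory pathway, had 587 RPKM among positive and 303 RPKM among negative cells. Slc31a1, the copper importer gene, stood at 15.8 against 5.82 RPKM, and Cox17, the chaperone for cytochrome oxidase, at 69.7 against 23.8 RPKM. Ccs, the chaperone for superoxide dismutase, was near equal as deposited, at 17.7 against 18.6 RPKM, and at a log2 ratio of -0.99 relative to the median gene, where Cox17 was at 0.56 and Slc31a1 at 0.42.

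Of the heat shock genes 3 of 6 were at least 2-fold higher as deposited and none relative to the median gene, against the same shares of all genes, with medians of 0.93 and -0.0038. Hspa1a and Hspa1b, near-identical copies whose reads can be divided between them, stood at 15.1 and 19.1 RPKM against 8.21 and 15.2 RPKM.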
